A study of Mus musculus with 2 samples.

Results

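The cells described here are thymic epithelial cells of NOD and BALB/c mice that were sorted for mimetic cells, and the comparison is NOD minus BALB/c. A droplet barcode was kept when it held at least 500 detected genes, under 15% mitochondrial UMIs, no UMI of Ptprc (the leukocyte antigen CD45) and at least 3 UMIs summed over Krt5, Krt8, Krt14, Krt18 and Epcam. UMIs are molecular tags, so that each counted UMI stands for 1 captured RNA molecule. A cell was given to a mouse when 1 hashtag held at least 80% of at least 100 UMIs over the 6 hashtags of the pool. Of 3447 barcodes, 1808 passed as epithelial, and 1124 of these were assigned to a NOD or BALB/c mouse, with 111 and 112 cells in NOD 1 and NOD 2 and 361 and 540 cells in BALB/c 1 and BALB/c 2. Another 368 went to B6 mice, which entered the fits but not the comparison, and 316 epithelial barcodes had no mouse.

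The mice were females of 6 weeks from the inbred strains NOD, BALB/c and B6 (C57BL/6), and the labels name no treatment. The sorted population was mTEClo negative for Pdpn (podoplanin) and CD104 (integrin beta 4), taken after magnetic removal of CD45-positive cells. Each replicate carried its own hashtag antibody, and all 6 were captured together in 1 droplet library, so strain was read from the hashtag. The labels give 2 replicates per strain, called mice here, without saying that they were separate animals, and 1 label gives both NOD hashtags the same replicate number. If hashtags shared an animal, the p-values measure only the spread between samples, which may be technical.

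Mimetic cells are medullary thymic epithelial cells that switch on lineage programs of other tissues, such as those of tuft cells, ciliated cells, keratinocytes or muscle, and so show tissue antigens to developing T cells. They arise from immature medullary cells under the same lineage factors that act in the periphery, such as Pou2f3 in tuft cells. The NOD strain develops spontaneous autoimmune diabetes. It carries an MHC haplotype with a particular I-A molecule and no I-E molecule, because the alpha chain gene H2-Ea is not expressed, whereas BALB/c mice make both class II molecules.

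The summed UMI counts were 2338900 and 2208100 in the NOD mice and 5944625 and 9155637 in the BALB/c mice, so NOD values rest on fewer molecules. Median depth per cell was alike, between 13498 and 14607 UMIs over the 4 mice, but the depth was spread differently. Cells over 40000 UMIs made up 20.7% and 11.6% of the NOD cells and held 49.5% and 30.8% of their UMIs. In BALB/c they made up 5.82% and 4.81% of cells and held 17.8% and 14.3% of UMIs. Droplets with 2 cells of the same mouse carry 1 hashtag and were not removed. The median mitochondrial share was 1.96% and 2.10% in NOD and 2.35% and 2.54% in BALB/c, and the leading hashtag was least pure in NOD 2, with a median of 91.6% against 96.7% to 98.2% in the other 3 mice. Levels are given as CPM, UMIs of a gene per 1000000 UMIs of a mouse's epithelial cells. Epcam did not separate the strains, at 1131 and 1190 CPM in NOD and 1066 and 1170 in BALB/c.

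Tuft-marker cells were fewer in NOD. Cells were sorted by computation into marker gates: a cell entered the gate of the list of 8 markers of which it had most detected, if at least 4, and ties entered none. Such a gate is a range of cells, not a proven type. The tuft gate (Avil, Trpm5, Gnb3, Gng13, Pou2f3, Dclk1, Il25 and Alox5), which describes chemosensory cells of mucosal surfaces, held 8 of 111 cells in NOD 1, 9 of 112 in NOD 2, 98 of 361 in BALB/c 1 and 152 of 540 in BALB/c 2. The share was 7.62% ± 0.586 in NOD and 27.6% ± 0.708 in BALB/c (SD, n = 2 each), and the ranges did not overlap. NOD thus had a 3.61-fold smaller tuft-gated share by the edgeR fit on cell counts (log2 -1.85 with an SE of 0.32, adjusted p = 0.0117 over 7 gates). Both NOD mice were needed for the call: without NOD 1 it stood at log2 -1.78 (edgeR adjusted p = 0.148) and without NOD 2 at log2 -1.93 (0.124), where the remaining NOD mouse is assumed to vary like the others. At the edge of the gate, 3 NOD and 15 BALB/c cells had exactly 4 markers and 15 and 37 had exactly 3. The median hashtag count of tuft-gated cells was 1478 UMIs in NOD and 2422 in BALB/c, and 11 tuft-gated barcodes led by a NOD hashtag (3 and 8) and 65 led by a BALB/c hashtag (29 and 36) had no mouse. With the purity limit lowered to 50%, a setting chosen after seeing the data, the difference was log2 -1.63 (edgeR adjusted p = 0.000611).

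The other gates gave no call. The immature gate lists markers of immature medullary cells (Ccl21a, Krt5, Krt14, Apoe, Trp63, Itgb4, Itga6 and Igfbp2), and its cells may also hold tissue transcripts. It held 52.3% and 48.2% of NOD and 39.9% and 39.3% of BALB/c cells (log2 0.34, SE 0.15, edgeR adjusted p = 0.214). Here the NOD mice were both above the BALB/c mice without passing the test. The cycling gate held 5.41% and 3.57% of NOD and 1.11% and 2.78% of BALB/c cells (log2 1.10, SE 0.60, adjusted p = 0.214). Keratinocyte-gated cells took 5.41% and 11.6% of NOD and 6.09% and 7.22% of BALB/c cells, and ciliated-gated cells 7.21% and 2.68% against 8.86% and 4.81%, with overlapping ranges in both. Over all epithelial cells the 8 keratinocyte markers summed to 3458 and 4663 CPM in NOD and 1103 and 1985 in BALB/c, with 0 called by edgeR. Keratinocyte-gated cells had median UMIs of 33469 in NOD and 16506 in BALB/c. No microfold-gated or muscle-gated cell was found in either NOD mouse, and such a count still allows 2.70% of NOD 1 and 2.68% of NOD 2 cells, against 6 and 8 cells in BALB/c (0.647% ± 0.132 and 0.878% ± 0.067, SD, n = 2). A difference in these gates was not detectable with this number of cells. Cells with at least 4 microfold markers, whatever their other markers, made up 5.41% and 3.57% of NOD and 1.39% and 1.48% of BALB/c cells. For the muscle markers the shares were 0.901% and 0.893% in NOD and 2.49% and 2.41% in BALB/c. These shares were not tested. The 7 gates of other tissues held 51 of 223 NOD cells (22.9%) and 399 of 901 BALB/c cells (44.3%). By these gates the label of mimetic cells covers the smaller part of either strain. Other gates can still hold such transcripts: of 39 BALB/c cells with a UMI of the muscle gene Myl1, 16 were immature-gated.

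**Figure D1:**
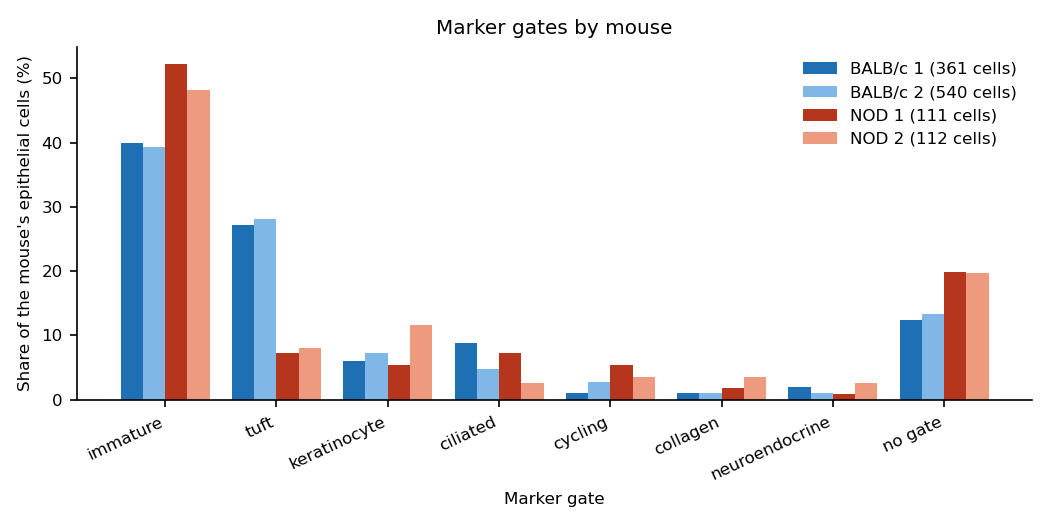
Share of each mouse's epithelial cells (%) in 7 marker gates and in no gate, 1 bar per mouse. Tuft-gated cells take 7.21% and 8.04% in NOD and 27.1% and 28.1% in BALB/c, and immature-gated cells 52.3% and 48.2% against 39.9% and 39.3%.

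Genes of the tuft program were lower in NOD over all epithelial cells. Of 19 tested members of a list of tuft effector and taste transduction genes, 10 fell and 0 rose in the sums per mouse (edgeR), against 3.94% of 15067 genes called lower and 2.99% called higher, with a list median of log2 -1.43 against -0.02 over all genes. The list shares 7 genes with the gate, so it is not independent of the share. In bulk sums of this kind, fewer cells of a type and less RNA per cell cannot be told apart. Plcb2, the phospholipase of taste signalling, stood at 40.6 and 34.0 CPM in NOD and 148 and 165 in BALB/c (log2 -1.97, SE 0.21, edgeR adjusted p = 0.00618). Chat, which makes acetylcholine, stood at 15.4 and 16.8 against 54.5 and 71.3 CPM, and Il17rb, the receptor for IL-25, at 8.55 and 10.4 against 40.9 and 32.1 CPM. Both fell (log2 -1.87 and -1.83), with the NOD mice below both BALB/c mice. Trpm5, the cation channel of taste cells, fell by 1.71 on the log2 scale, Dclk1, a tuft cell kinase, by 1.73 and Ptgs1, a prostaglandin synthase, by 1.43. Gnat3, Alox5 and Il25 were not called (log2 -1.58, -1.13 and -0.97), and in Il25 the mice overlapped. With tuft-gated cells left out, 9 of the 10 were tested and Avil and Cysltr2 were still called. Without NOD 1, NOD 2, BALB/c 1 and BALB/c 2 in turn, 7, 9, 4 and 4 of the 10 were called. Without tuft-gated cells Plcb2 and Chat stood at log2 -2.40 and -3.19 without a call (edgeR adjusted p = 0.0662 and 0.276).

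Inside the tuft gate, Plcb2, Chat and Ptgs1, effector genes that did not define it, were not lower in both NOD mice. The tuft-gated cells were deeper in NOD, with a median of 24460 UMIs against 17335.5 in BALB/c. Plcb2 had 483 and 329 CPM in the tuft-gated cells of NOD and 482 and 478 CPM in those of BALB/c. Chat had 179 and 172 against 176 and 201 CPM, and Ptgs1 277 and 357 against 259 and 236. These NOD values rest on 33 to 89 UMIs in 8 and 9 cells, too few cells for the gate-adjusted fit, so no test was made inside the gate. Chat overlapped between the strains, and Ptgs1 was higher in both NOD mice. Other genes were lower inside the gate in both NOD mice. Rims2, a scaffold of vesicle release sites, had 65.1 and 83.5 CPM in the NOD tuft gate and 253 and 231 CPM in the BALB/c tuft gate, and Aox4, an aldehyde oxidase, 174 and 185 against 350 and 368. Cntn4, a neuronal adhesion molecule, had 0 UMIs in the tuft gate of either NOD mouse and 341 and 457 UMIs (196 and 155 CPM) in that of BALB/c. The related adhesion gene Cntnap5a likewise had 0 UMIs there in NOD and 116 and 80.4 CPM in BALB/c.

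Bitter taste receptors were the most tuft-restricted of these. Tas2r123 had 1 UMI in NOD 1 and 0 in NOD 2 over all cells, and 113 and 247 UMIs in the BALB/c mice, of which 113 and 245 lay in the tuft gate. The ratio of BALB/c to NOD per UMI was 108 (95% interval 19.3 to 4293, counting error only; edgeR adjusted p = 0.00445). Tas2r109 stood at 2.14 and 0.906 CPM in NOD and 28.8 and 42.2 in BALB/c, and Tas2r107 at 1.71 and 0 against 14.8 and 26.2. All 3 lie on chromosome 6 between 131659118 and 132980965 (mm10), and B6 mice had intermediate levels, for Tas2r123 at 4.74 and 5.45 CPM. Receptors of this family are similar in sequence, and reads could be split between copies.

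**Figure D2:**
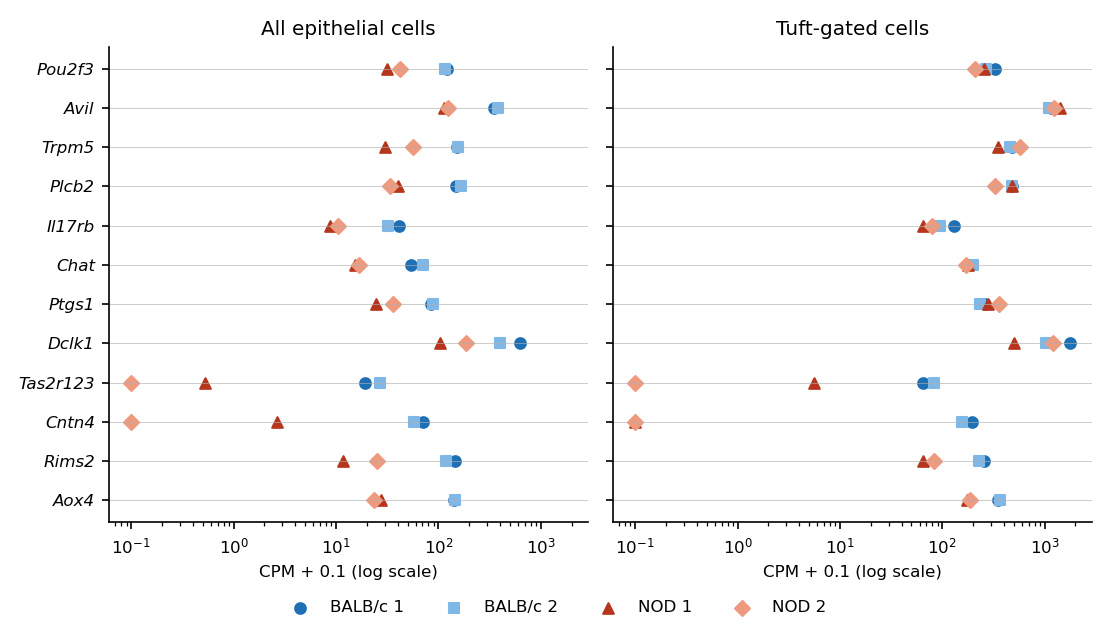
CPM plus 0.1 on a log axis for 12 tuft-related genes, over all epithelial cells (left) and over tuft-gated cells (right), 1 symbol per mouse. Plcb2 and Chat separate the strains on the left and meet on the right, whereas Tas2r123, Cntn4, Rims2 and Aox4 stay lower in NOD in both panels.

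Across all genes, 451 were higher and 593 lower in NOD among 15067 tested in the epithelial sums (6.93% called in either direction; 2.99% higher, 3.94% lower; edgeR quasi-likelihood, adjusted p under 0.05). A further fit removed the share of the gates: counts were summed per gate and mouse, and strain was tested with gate as a term and mouse as block (limma). In it 382 genes were higher (3.37% of 11348) and 250 lower (2.2%), and NOD entered through immature-gated, ungated and, for NOD 2, keratinocyte-gated cells. Each mouse gave several sums to that fit, and the block correlation was -0.05. Its p-values therefore treat the sums of a mouse nearly as replicates and do not measure the spread between mice alone. Of the genes called in the sums, 215 were also called higher and 134 also called lower after gate adjustment. In immature-gated cells alone, 82 genes were higher (0.79% of 10382) and 38 lower (0.366%). The number of calls depended on every mouse: higher and lower calls numbered 66 and 142 without BALB/c 1, 72 and 119 without BALB/c 2, 135 and 229 without NOD 1 and 177 and 307 without NOD 2. Scaling by library size in place of TMM gave 332 higher and 845 lower and moved the median of all genes from log2 -0.02 to -0.13. Without cells over 40000 UMIs 255 genes were higher and 304 lower, and without tuft-gated cells 82 and 81.

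**Figure D3:**
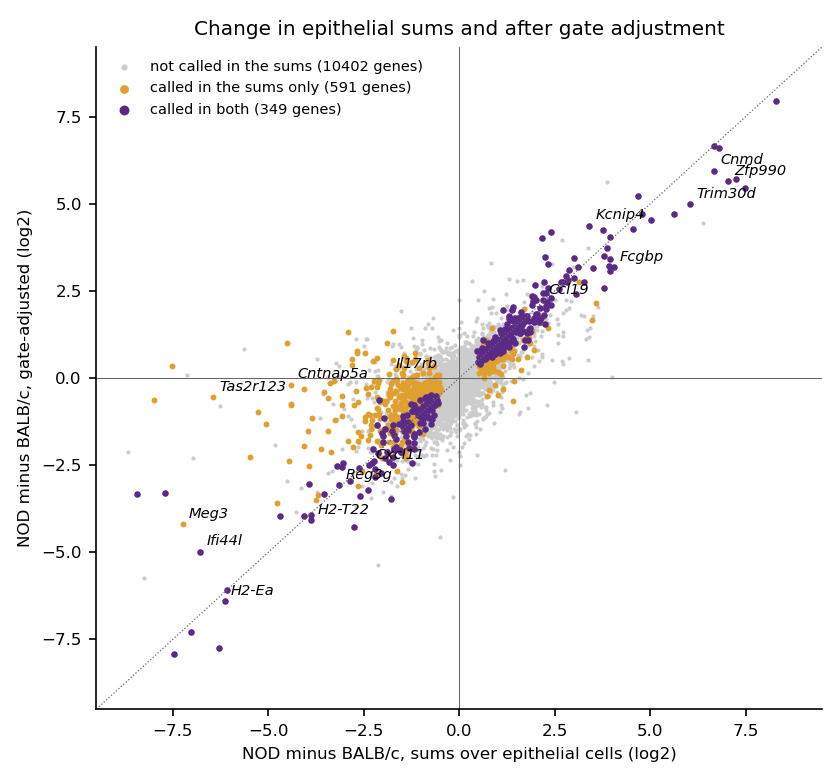
Fitted difference NOD minus BALB/c (log2) in the epithelial sums (horizontal) and after gate adjustment (vertical) for 11342 genes, with the line of equality dotted. H2-Ea (-6.14 and -6.41) and Fcgbp (4.04 and 3.18) lie far from 0 on both axes. Tas2r123, Cntnap5a and Il17rb lie at -0.55, -0.19 and 0.12 on the vertical axis. The gate-adjusted fit held no NOD tuft sum, so these vertical values leave out the tuft-gated cells of NOD.

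The genes with the largest differences that passed both fits separated the mice without overlap, which the choice of called genes favours. Fcgbp, a mucus protein that binds IgG, stood at 920 and 1182 CPM in NOD and 80.2 and 57.5 CPM in BALB/c (log2 4.04, SE 0.36, edgeR adjusted p = 0.00705; gate-adjusted log2 3.18, limma adjusted p = 2.99e-07). It lies on chromosome 7 at 28071236 to 28120862, plus strand (mm10). Within immature-gated cells it reached 1411 and 2078 CPM in NOD and 154 and 122 CPM in BALB/c, and in tuft-gated cells it had at most 18 UMIs in any mouse. Kcnip4, a potassium channel-interacting protein on chromosome 5 (48389502 to 49524907, minus strand), stood at 147 and 197 against 18.7 and 16.4 CPM (log2 3.40, adjusted p = 0.000458), and at 291 and 423 against 12.3 and 9.53 CPM in immature-gated cells. Kcnip4 was thus higher in both NOD mice, and more so inside the immature gate.

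Cnmd, which encodes the cartilage glycoprotein chondromodulin, stood at 105 and 65.2 CPM in NOD and 1.18 and 0.655 CPM in BALB/c (log2 6.67, SE 0.60, adjusted p = 0.00656). Its UMIs in NOD lay mainly in the immature gate, with 162 of 246 in NOD 1 and 117 of 144 in NOD 2. Psca, an epithelial surface antigen, stood at 77.8 and 49.8 against 1.68 and 2.40 CPM (log2 5.01, adjusted p = 0.0301). In NOD 1 its UMIs lay mostly in ungated cells (142 of 182) and in NOD 2 in keratinocyte-gated cells (95 of 110), so the 2 mice reached similar sums through different cells. Hs3st4, a heparan sulfate sulfotransferase, and Cryzl2, a crystallin-like oxidoreductase, rose by log2 3.80 and 3.88. Zfp979, Zfp990 and BC023719 had 150, 126 and 120 UMIs in the NOD mice and 3, 3 and 2 in the BALB/c mice, with ratios of 166 (interval 55.7 to 814), 139 (46.6 to 685) and 199 (54.0 to 1664) per UMI. Zfp979 and Zfp990 are zinc finger genes of a repeated cluster on chromosome 4, and BC023719 is annotated as antisense. The sources used here do not give the strand setting of the counting. Trim30d, Csnk2a3 and Rpl26 complete the 12 and belong to families with close copies or pseudogenes. Rpl26, a ribosomal protein gene, stood at 1561 and 1641 CPM in NOD and 94.9 and 128 CPM in BALB/c, with 1097 and 960 CPM in B6. Of the 12 genes, B6 lay nearer to NOD in 5 and nearer to BALB/c in 7.

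Among the 12 largest decreases, the class II gene H2-Ea, the class I gene H2-T22, the chemokine gene Cxcl11 and the interferon-stimulated Ifi44l are described with their families below. Trim12c, a restriction factor of the Trim family, stood at 5.56 and 4.53 CPM in NOD and 63.3 and 62.7 CPM in BALB/c (log2 -3.53, SE 0.19, adjusted p = 0.000458). Reg3g, a gut lectin that kills Gram-positive bacteria, stood at 18.0 and 10.9 against 98.2 and 175 CPM (log2 -3.14, adjusted p = 0.0153), while the B6 mice had 6316 and 4912 CPM. Rims2 (log2 -2.76), Apba2, an adaptor of synaptic vesicle fusion (-2.59), and Aox4 (-2.38) also passed both fits. So did the adhesion genes Ctnnal1, an alpha-catenin-like protein (-2.27), and Itga9, an integrin (-2.23), and Cib3, a calcium-binding protein (-3.93). B6 lay nearer to BALB/c in 9 of the 12 and nearer to NOD in 3. Leaving out 1 mouse ended between 1 and 2 of the 12 higher calls, Psca each time. It ended 6 lower calls without NOD 1, 7 without NOD 2, 4 without BALB/c 1 and 5 without BALB/c 2, with Ifi44l, H2-Ea and Cib3 among them each time.

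**Figure D4:**
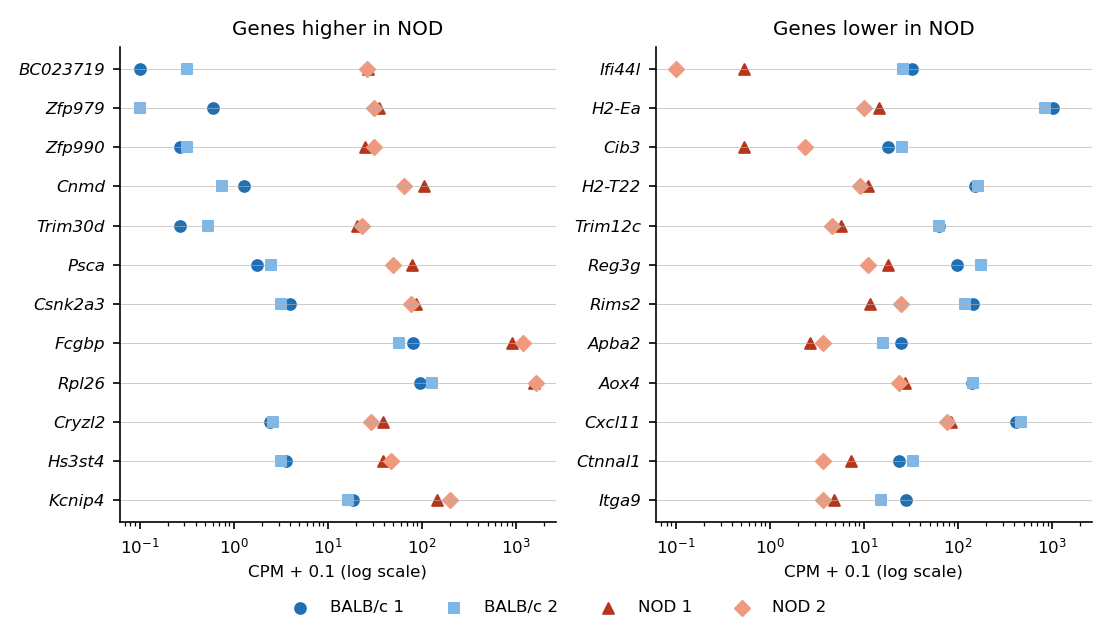
CPM plus 0.1 on a log axis for the 12 genes of largest increase (left) and largest decrease (right) among those called in both fits, 1 symbol per mouse. In each gene both NOD mice lie on 1 side of both BALB/c mice, which the choice of called genes favours.

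Some large differences of the sums shrank to less than 0.5 of their size on the log2 scale after gate adjustment. Klk14, a skin protease, stood at 36.3 and 43.0 CPM in NOD and 10.3 and 11.4 CPM in BALB/c (log2 1.97, adjusted p = 0.0181), with a gate-adjusted log2 of 0.81 (limma adjusted p = 0.674). Endou, Tprg, Sdr16c5, Glrx and Sdc1 (the proteoglycan syndecan-1) rose by log2 1.76, 1.61, 1.55, 1.44 and 1.39 in the sums and were not called after adjustment. In the other direction these were Tas2r123, Tas2r107, Tas2r109, Cntn4, Cntnap5a and Tceal3. The fit with gates held no NOD tuft sum, so for genes confined to tuft-gated cells it compares only the cells outside that gate between these strains.

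Among genes of MHC class II presentation, 5 rose in NOD in the sums and H2-Ea was nearly absent. H2-Ea, the I-E alpha chain, on chromosome 17 at 34341959 to 34344645, minus strand, annotated as a polymorphic pseudogene because the reference strain does not make it, had 34 and 22 UMIs in NOD (14.5 and 9.96 CPM) and 6155 and 7691 UMIs in BALB/c (1035 and 840 CPM). The difference was log2 -6.14 (SE 0.78, edgeR adjusted p = 0.0226; gate-adjusted -6.41, limma adjusted p = 0.00124). In BALB/c the level was highest in the immature gate, at 1758 and 1431 CPM, and low in the tuft gate, at 162 and 52.6 CPM. Leaving out any of the 4 mice, testing without the filter on low counts or taking immature-gated cells alone ended the call, and its adjusted p rose to at most 0.141 over 16 alternatives, with log2 between -6.75 and -4.67.

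Of 13 class II presentation genes, 5 rose and 1 fell (against 2.99% and 3.94% of all genes), with a median of log2 0.61. H2-Ab1, the I-A beta chain, stood at 2508 and 2304 CPM in NOD, above the 1781 and 1506 CPM of BALB/c (log2 0.66, SE 0.13, adjusted p = 0.0309). Cd74, the invariant chain that guards the peptide groove, stood at 7274 and 5742 against 4271 and 3910 CPM (log2 0.78, adjusted p = 0.0285). H2-Eb1 (log2 0.61), H2-DMb2, a subunit of the peptide exchange factor (1.06), and the lysosomal protease Ctsl (0.63) also rose. H2-Aa (0.57) and Ciita, the class II transactivator (0.48), were not called, with adjusted p of 0.0609 and 0.0585. After gate adjustment 0 of the 13 were called higher (limma; 1 at an unadjusted p under 0.05), H2-Ab1 at log2 0.00 and Cd74 at 0.15. In tuft-gated BALB/c cells H2-Ab1 was low, at 274 and 191 CPM against 2844 and 2476 CPM in immature-gated cells, and without tuft-gated cells none of the 5 was called. None of the 5 was called without NOD 1, without BALB/c 1, without BALB/c 2 or in immature-gated cells alone, and without NOD 2 Cd74 and H2-DMb2 were called. Markers of blood cells that carry class II were also present. B and plasma cell markers (6 genes) summed to 1750 and 39.4 CPM in NOD and 668 and 566 in BALB/c, mostly Jchain, with Ms4a1 at 0 and 1 UMIs in NOD. The 9 myeloid and dendritic cell markers summed to 352 and 106 CPM in NOD and 116 and 74.7 in BALB/c, mostly Lyz2 (330 and 93.3 against 102 and 58.8). Of these 9, 3 were tested and 0 called, with a median of log2 1.21. Cd68 was higher in both NOD mice, at 16.7 and 8.60 against 5.21 and 6.44 CPM, Fcer1g was lower in both, at 1.28 and 0 against 4.54 and 5.24 CPM, and Itgax and Siglech had at most 1 UMI in any of the 4 mice. The part of such cells in the class II values was not tested.

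The promoter of H2-Eb1 is shown because class II genes share a conserved promoter module. Its Y box, the site for the factor NF-Y, was searched as CTGATTGG on both strands and is given in capitals at position -62 from the RefSeq start. The window of 250 bases before to 50 bases after the start is chr17:34305617-34305916 (GRCm38.p6, plus strand), from the C57BL/6J reference and from neither strain compared.
H2-Eb1: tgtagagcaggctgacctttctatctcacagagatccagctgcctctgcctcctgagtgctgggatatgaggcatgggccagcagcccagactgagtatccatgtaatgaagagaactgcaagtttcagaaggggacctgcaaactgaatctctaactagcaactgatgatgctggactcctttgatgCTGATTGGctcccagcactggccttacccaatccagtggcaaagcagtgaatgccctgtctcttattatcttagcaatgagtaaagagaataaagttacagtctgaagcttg
These letters occurred in 4.10% of 32851 RefSeq promoters of that length and in 3 of 9 matched class II presentation genes, H2-Aa and H2-Eb1 among them.

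Of 15 class I genes tested, 2 rose and 2 fell, beside 2.99% and 3.94% of all genes. Leaving out any of the 4 mice left H2-T22 as the only call of the 4. H2-D1, a classical class I heavy chain, stood at 2822 and 2393 CPM in NOD, below 4806 and 4612 CPM in BALB/c (log2 -0.75, SE 0.13, adjusted p = 0.0215; gate-adjusted -0.78, limma adjusted p = 0.000648), whereas H2-K1 (log2 0.30) and B2m, the shared light chain (0.32), were not called. H2-T22, a ligand of gamma delta T cells, stood at 11.1 and 9.06 against 153 and 165 CPM (log2 -3.87, SE 0.19, adjusted p = 0.000433). It was called in all 16 alternatives, with log2 from -4.28 to -3.52. Its near-identical neighbour H2-T10 went the other way, at 50.5 and 72.5 CPM in NOD and 5.55 and 9.28 CPM in BALB/c (log2 3.12, adjusted p = 0.00656), a gene named after its values were seen. Reads could be split between the 2 copies, and class I alleles differ between these strains and the B6 reference used for counting. H2-Q7 (0.55) and H2-M3 (0.63), nonclassical genes, rose in the sums and not after gate adjustment, while H2-M2 passed only the latter (log2 1.45, limma adjusted p = 0.00113).

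Of 12 genes of the immunoproteasome and peptide loading, 4 rose and 0 fell in the sums (edgeR; 10 higher and 0 lower at an unadjusted p under 0.05), with a median of log2 0.52, and 3 rose after gate adjustment. Over all genes 2.99% were called higher in the sums and 3.37% after gate adjustment. Psmb8, an interferon-inducible catalytic subunit, stood at 486 and 475 CPM in NOD and 275 and 263 CPM in BALB/c (log2 0.94, SE 0.11, edgeR adjusted p = 0.0079; gate-adjusted 0.69, limma adjusted p = 0.00506), and it also rose in immature-gated cells alone (0.91, adjusted p = 0.0311). Psme2, a subunit of the proteasome activator PA28, stood at 559 and 450 against 220 and 268 CPM (log2 1.15, gate-adjusted 0.79). Psme1 and Psmb10 rose by log2 0.59 and 0.67 in the sums alone, and Calr after gate adjustment alone. Psmb9 (0.43) and Tap1 (0.31) were not called. None of the 4 was called without tuft-gated cells or without BALB/c 1. Psmb8 alone was called without NOD 1, Psme2 alone without BALB/c 2, both of these without cells over 40000 UMIs, and 3 of the 4 without NOD 2.

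Of 40 interferon-stimulated genes 2 rose in the sums and 0 fell (edgeR; 9 higher and 2 lower at an unadjusted p under 0.05), close to the 2.99% of all genes called higher, with a median of log2 0.22. After gate adjustment 6 of 38 rose, beside 3.37% of all genes, with a median of 0.37. Neither of the 2 was called in the sums without tuft-gated cells, without BALB/c 2 or in immature-gated cells alone, and 1 of them was called without each of the other 3 mice. Ifit3, which binds viral RNA complexes, had 121 and 145 CPM in NOD against 72.8 and 52.8 CPM (log2 1.20, SE 0.17, adjusted p = 0.0126; gate-adjusted 1.39, limma adjusted p = 0.00247). For Iigp1, a GTPase induced by interferon, the sums gave a rise of log2 0.76 (adjusted p = 0.0161), against 0.42 after gate adjustment (0.472). Mx1, Oas2, Oas3, Oasl2 and Ifit3b passed only the gate-adjusted fit, at log2 0.89, 0.98, 0.67, 0.60 and 0.70. Ifit3 and Ifit3b are close copies. Isg15 (0.32) and Irf7 (-0.17) were not called. Ifi44l, an interferon-induced protein outside that list, was nearly lost: 1 and 0 UMIs in NOD against 193 and 241 in BALB/c, a ratio of 131 per UMI (interval 23.3 to 5174; edgeR adjusted p = 0.0185, limma gate-adjusted 6.82e-05). Of the BALB/c cells with a UMI of Ifi44l, 148 of 223 were immature-gated. B6 was also low, at 2.21 and 0 CPM.

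The promoters of Ifit3 and Ifi44l are printed as examples of a gene that rose and a gene that was nearly lost, chosen with their motif matches known. The interferon-stimulated response element was searched on both strands as 2 GAAA runs with any 2 bases between them, and its matches are in capitals, here on the minus strand of the print. The windows are chr19:34583279-34583578 on the plus strand and chr3:151762842-151763141 on the minus strand (GRCm38.p6, RefSeq), with 2 matches and none.
Ifit3: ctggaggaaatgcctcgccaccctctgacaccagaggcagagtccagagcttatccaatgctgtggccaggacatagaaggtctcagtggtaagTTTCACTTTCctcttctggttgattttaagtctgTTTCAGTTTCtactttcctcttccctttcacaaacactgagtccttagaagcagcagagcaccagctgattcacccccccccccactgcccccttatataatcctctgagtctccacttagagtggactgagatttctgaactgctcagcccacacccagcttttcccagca
Ifi44l: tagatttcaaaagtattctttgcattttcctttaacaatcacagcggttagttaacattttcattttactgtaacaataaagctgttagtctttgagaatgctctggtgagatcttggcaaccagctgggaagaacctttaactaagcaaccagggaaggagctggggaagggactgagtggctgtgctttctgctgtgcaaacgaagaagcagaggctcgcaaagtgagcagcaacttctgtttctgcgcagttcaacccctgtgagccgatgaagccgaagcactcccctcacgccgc
The motif occurred in 3.44% of 32851 promoters and in 18 of 29 matched genes of the interferon list. Oasl2, which rose after gate adjustment, and Psmb8 and Psme2, which rose in both fits, also had none. A missing match says only that these letters are not in this window.

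Chemokine genes did not share 1 direction. Cxcl11, a ligand of CXCR3 on activated T cells, on chromosome 5 (92359544 to 92365485, minus strand), had 84.7 and 76.5 CPM in NOD against 412 and 474 CPM (log2 -2.35, SE 0.27, adjusted p = 0.00894; gate-adjusted -2.49, limma adjusted p = 0.00376). In immature-gated cells it was 149 and 138 against 910 and 1066 CPM (adjusted p = 9.01e-05). B6, in which the annotation lists the gene as a polymorphic pseudogene, had 38.2 and 69.3 CPM. The other CXCR3 ligands were not lower: Cxcl9 stood at 107 and 142 against 129 and 114 CPM, and Cxcl10 at 515 and 652 against 279 and 240 CPM (log2 1.28, adjusted p = 0.141). The Cxcl11 call ended in 5 of 16 alternatives, without NOD 1, without NOD 2, without BALB/c 2, without cells over 40000 UMIs and at a hashtag purity of 90%, with a highest adjusted p of 0.0831 over the alternatives and log2 from -2.75 to -1.96. Ccl19, a CCR7 ligand that guides thymocytes into the medulla, stood at 108 and 95.1 CPM in NOD and 21.4 and 26.3 CPM in BALB/c (log2 2.18, SE 0.17, adjusted p = 0.00156). It was called in all 16 alternatives. Ccl21a, the other CCR7 ligand, overlapped between the strains, at 1901 and 2315 against 2051 and 2426 CPM. Ccl5 passed only the gate-adjusted fit (log2 2.23, limma adjusted p = 0.0377), with 312 CPM in NOD 1 and 66.6 in NOD 2 against 44.1 and 15.6.

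**Figure D5:**
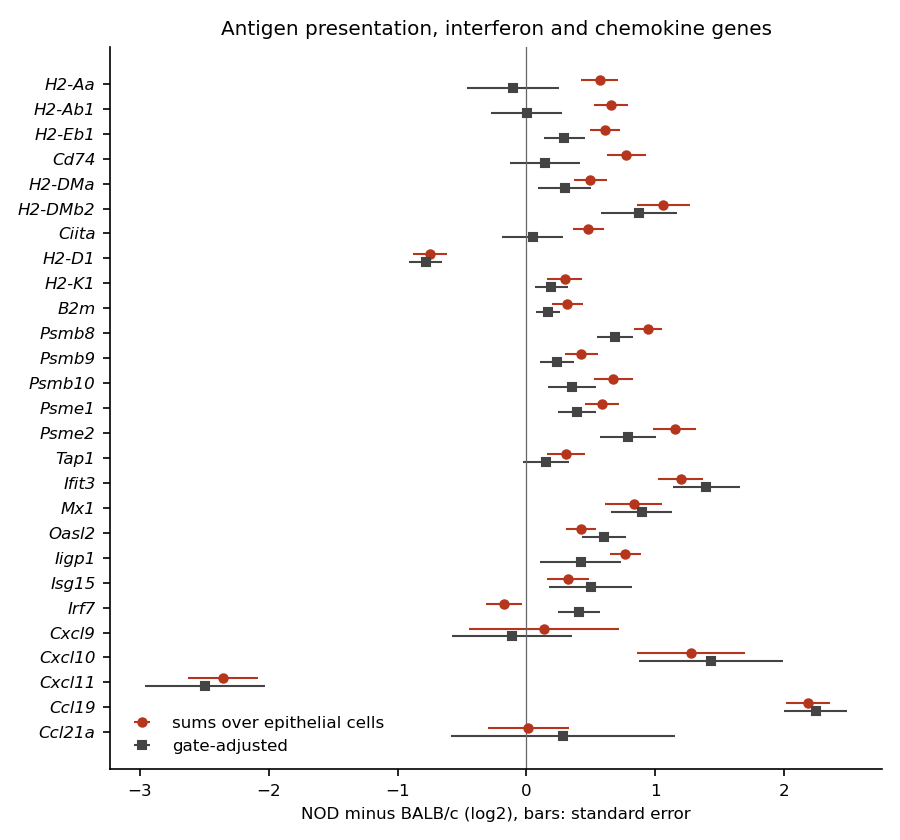
Fitted difference NOD minus BALB/c (log2) for 27 genes of antigen presentation, the interferon response and chemokines, in the epithelial sums (circles) and after gate adjustment (squares), with bars of 1 standard error. Class II genes such as H2-Ab1 lie at 0.66 in the sums and at 0.00 after adjustment, whereas Psmb8, Ifit3, Cxcl11 and Ccl19 keep their side.

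Of 16 tested regulators of medullary epithelium, 3 rose and 0 fell in the sums, beside 2.99% and 3.94% of all genes. Cd40, the receptor for thymocyte help, rose by log2 0.72 and Icosl, a costimulatory ligand, by 1.13 (edgeR adjusted p = 0.0423 and 0.0412). The NF-kB subunit Relb rose by 0.51 (edgeR adjusted p = 0.0494). After gate adjustment 0 were called (limma), with 1 at an unadjusted p under 0.05. None of the 3 was called when any of the 4 mice, the cells over 40000 UMIs, the tuft-gated or the cycling-gated cells were left out. Aire, which drives tissue antigen expression, stood at 149 and 108 CPM in NOD and 110 and 77.9 in BALB/c (log2 0.57, adjusted p = 0.487), and Fezf2 at 289 and 207 against 214 and 201 (0.36, adjusted p = 0.271), both with overlapping mice.

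Of 24 mimetic lineage transcription factors, 1 rose and 3 fell, beside 2.99% and 3.94% of all genes. Pou2f3, the tuft cell factor and a gate marker, stood at 31.2 and 42.6 against 122 and 117 CPM (log2 -1.59, adjusted p = 0.00825). The epithelial factors Elf3 and Ehf fell by 1.16 and 0.79 on the log2 scale. Without tuft-gated cells Elf3 stood at log2 -0.49 (adjusted p = 0.21) and Ehf at 0.28 (0.413). Insm1, a neuroendocrine factor, rose by log2 1.12 (107 and 98.7 against 46.1 and 55.6 CPM, edgeR adjusted p = 0.012), but without cells over 40000 UMIs it stood at -0.08 (0.942). It is also a marker of the neuroendocrine gate. Of the 8 markers of that gate 1 rose and 0 fell, with a median of log2 -0.92 against -0.02 over all genes. Myog, the muscle factor, was not called in the sums but passed the gate-adjusted fit (log2 -5.36, limma adjusted p = 0.0448) and the sums without tuft-gated cells (-5.90, 0.0118), at 15.4 and 104 against 233 and 326 CPM.

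Autoantigen genes of the diabetic pancreas were not called. Of 14 listed islet genes 8 were tested, and 0 were called by edgeR or after gate adjustment by limma (1 and 2 at an unadjusted p under 0.05). Chga, the source of the antigen of a diabetogenic T cell clone, stood at 34.6 and 55.7 CPM in NOD and 80.7 and 21.6 in BALB/c, Iapp at 3.42 and 64.8 against 9.92 and 14.0 and Ptprn2 at 8.12 and 56.2 against 89.7 and 36.0. In these 3 genes the 2 mice of at least 1 strain differed more than the means of the strains did. Of 6 tested salivary and lacrimal antigens 1 rose and 0 fell, beside 2.99% and 3.94% of all genes. This was Lpo, a lactoperoxidase (88.1 and 91.0 against 51.8 and 50.6 CPM, log2 0.91, edgeR adjusted p = 0.012). That call ended without tuft-gated cells (log2 0.54, adjusted p = 0.131), without cells over 40000 UMIs, without BALB/c 1, without BALB/c 2 and in immature-gated cells alone. Of 20 tested mucus and antimicrobial genes, Fcgbp rose and Reg3g and Pigr fell, beside 2.99% and 3.94% of all genes. Reg3g was not called without NOD 2, and Pigr not without NOD 2, BALB/c 1 or BALB/c 2. Pigr, the receptor that carries IgA across epithelium, stood at 22.7 and 16.3 against 41.4 and 46.4 CPM (log2 -1.07, adjusted p = 0.0218), but within immature-gated cells it stood at log2 3.04 (0.0968), the opposite sign. Of 11 tested candidate genes of NOD diabetes loci 1 rose and 1 fell, beside 2.99% and 3.94% of all genes. These were H2-Ab1 and H2-Ea, both already counted among the class II presentation genes. Ctla4 stood at 0 and 0.453 against 4.88 and 3.71 CPM (edgeR adjusted p = 0.0607).

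Restriction genes of the Trim family changed as neighbours. Within chromosome 7 from 104244457 to 104507849, 7 genes were tested and 4 called. Trim30d (20.5 and 23.1 CPM in NOD against 0.168 and 0.437), Trim5 (8.12 and 7.70 against 0.505 and 0.546) and Trim34a (21.4 and 22.6 against 8.24 and 9.07) rose and Trim12c fell, all in both fits. Trim34a was not called without BALB/c 1 or without BALB/c 2. These are paralogs, and their reads could be assigned to one another. On chromosome 4 from 145510759 to 147642513, the zinc finger cluster of Zfp990 and Zfp979, 5 of 9 tested genes rose and 1 fell. In the MHC from 33996017 to 37483552 on chromosome 17, 12 of 133 rose and 8 fell (15%, against 6.93% of all genes). The lists of these regions were set by genes already known to differ.

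Cell cycle genes leaned higher in NOD. Of the 8 markers of the cycling gate, 1 rose in the sums, beside 2.99% of all genes: Cdk1 (68.8 and 46.6 CPM against 22.4 and 24.2, log2 1.41, edgeR adjusted p = 0.0152). After gate adjustment 5 of 6 tested rose (limma), beside 3.37% of all genes. These were Mki67, Top2a, Cdk1, Ube2c and Cenpf, by log2 1.54, 2.27, 2.05, 2.82 and 1.61. That fit held no sum of the cycling gate, and it did not remove cells with cycling markers from the other gates. At least 4 of the markers were found in 23 NOD and 29 BALB/c cells, of which 10 and 19 were in the cycling gate. Cells with at least 4 of these markers, whatever their other markers, made up 10.8% and 9.82% of NOD and 1.94% and 4.07% of BALB/c cells. Cycling-gated cells were deep, with median UMIs of 47428 in NOD and 48641 in BALB/c. Of the 8 collagen gate markers 0 were called in the sums. After gate adjustment 3 rose, beside 3.37% of all genes, with a list median of log2 0.43. Col6a1 (157 and 193 against 36.8 and 51.4 CPM, log2 2.08 in the sums, edgeR adjusted p = 0.0578) and Col6a2 (120 and 142 against 23.6 and 34.0) rose there by 1.64 and 1.70. Sparc, a collagen-binding protein, rose there by 2.25. The gate-adjusted fit held no sum of the collagen gate. Fibroblast markers summed to 5.13 and 7.70 CPM in NOD and 7.74 and 2.40 in BALB/c, made up in BALB/c 1 mostly of Col1a1 (34 UMIs there and 0 in the other 3 mice) and in NOD mostly of Col3a1 (6 and 12 UMIs, and 0 in BALB/c). Of the 8 immature markers 3 rose and 0 fell in the sums, beside 2.99% and 3.94% of all genes. None of the 8 was called in immature-gated cells alone. Krt14 rose by log2 0.79, Apoe by 1.12 and Igfbp2 by 1.74, whereas Ccl21a overlapped between the strains. Rgs5, a pericyte gene, rose by 0.63 (310 and 299.8 against 210 and 213 CPM). The 6 pericyte and smooth muscle markers summed to 875 and 1173 CPM in NOD and 628 and 680 in BALB/c. Acta2 (319 and 393 against 199 and 204) and Myh11 (90.2 and 103 against 73.5 and 70.0) were higher and Pdgfrb (3.85 and 3.62 against 5.89 and 5.57) lower in both NOD mice without a call, and the part of such cells in the collagen values was not tested.

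Stress genes moved in 2 directions. Of 17 immediate-early and heat shock genes 3 fell in the sums: Fos (484 and 652 against 1226 and 1331 CPM, log2 -1.07), Egr1 (-0.95) and Ier2 (-0.94), beside 3.94% of all genes. None of the 3 was called without NOD 1, without BALB/c 1, without BALB/c 2, without tuft-gated cells or in immature-gated cells alone. Within immature-gated cells Fos stood at log2 -0.17 (adjusted p = 0.929). Of 12 genes of the unfolded protein response 3 rose and 0 fell in the sums, beside 2.99% and 3.94% of all genes. These were the chaperone Hspa5 (802 and 729 against 508 and 463 CPM, log2 0.76), Sdf2l1 (1.06) and Manf (0.83). None of these 3 was called when any of the 4 mice, the tuft-gated cells or the cells over 40000 UMIs were left out. Of 12 apoptosis and p53 genes 0 were called in the sums by edgeR (2 at an unadjusted p under 0.05), and Bbc3, a p53 target, fell after gate adjustment (-1.01, limma adjusted p = 0.0455).

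Some transcripts were nearly absent from NOD or from BALB/c, whatever their level in B6. With at most 3 UMIs over both mice of 1 strain and at least 30 in each mouse of the other, 3 genes were nearly absent from BALB/c (Zfp979, Zfp990 and BC023719) and 58 from NOD. NOD had fewer UMIs in all, and the part of depth in this was not tested. Meg3, a maternally expressed noncoding RNA on chromosome 12 (109541001 to 109571726, plus strand), had 3 and 0 UMIs in NOD and 705 and 961 in BALB/c (ratio 167, interval 57.1 to 812; edgeR adjusted p = 0.000647), and B6 had 0.316 and 0.321 CPM. Its BALB/c UMIs lay in 54 cells, 25 of them tuft-gated. Tdgf1, a NODAL co-receptor, had 1 and 1 UMIs against 55 and 315 and was found in 58 BALB/c cells, 57 of them tuft-gated (adjusted p = 0.0609). The muscle genes Myl1, a myosin light chain, and Sln, a calcium pump regulator, had 2 and 1 UMIs in NOD and 2048 and 596 in BALB/c. Neither was called (adjusted p = 0.0706 and 0.0822), and their UMIs in BALB/c lay in 39 and 11 cells. Upk3a, a urothelial plaque protein, stood at 1.28 and 0 against 25.6 and 16.6 CPM (adjusted p = 0.203), and B6 had 349 and 51 UMIs.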

How the data were processed

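The authors deposited raw UMI counts, for genes and hashtags per barcode, from Cell Ranger 7.0.0 on mm10 per the submitters' processing notes. Which annotation release they counted on is not given in the sources used here. Coordinates came from GENCODE M21 by identifier, with 54435 of 55487 found. No column of per-sample values was left unused (0).

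UMI counts were summed per mouse over the epithelial cells and compared by quasi-likelihood in edgeR 4.0.16 (TMM, filterByExpr, robust, 6 mice in 1 fit, 3 residual degrees of freedom, common dispersion 0.0411), with Benjamini-Hochberg adjustment over all genes tested and a threshold of 0.05. The gate-adjusted fit used voom in limma 3.58.1, taking the 20 gate sums that held 10 cells or more, terms for strain and gate, and the mouse as a block (correlation -0.05). Gates of at least 20 cells were tested by edgeR on cell numbers, scaled by the epithelial cells of each mouse. DESeq2 1.42.0 was an alternative, as were other cell limits, gates, filters, thinning to 5000 UMIs per cell (which left out 57 and 91 BALB/c and 27 and 13 NOD cells) and leaving out each mouse. Exact permutation of 2 mice against 2 cannot give a p below 0.333, so none is reported. The fits were tested on simulated data. Confidence intervals (95%) and limits for a count of 0 (3 counts) cover counting error only.

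Named genes were the 12 of largest change per direction called in both fits with at least 20 CPM in the higher strain, the 6 per direction whose gate-adjusted change was under 0.5 of that size, up to 8 per direction nearly absent from 1 of these strains, and members of fixed functional lists. The members, gates and lists were chosen with earlier results of these data known. The label of the hashtags gives both NOD hashtags the replicate number 1; they were kept as 2 mice, NOD 1 and NOD 2. List symbols that occur on several identifiers were read from the one with most UMIs.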

Additional observations from a re-analysis of the deposited data

Results flagged for a closer look

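Hashtags that were not part of the pool gave a signal outside the measurements used here. The matrix held 15 hashtag features, of which 6 belonged to the pool, and the other 9 had 9911 UMIs in 1796 barcodes, above the 3 counts that a count of 0 allows. The hashtags of the pool had 11083995 UMIs.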

How the results depend on the processing

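No paired analysis was possible because the label gives both NOD mice the same replicate number, and numbers of different strains name different mice. The genes called higher and lower in the epithelial sums numbered 1085 and 1581 without the filter on low counts, 255 and 304 without cells over 40000 UMIs, 82 and 81 without tuft-gated cells and 82 and 38 in immature-gated cells only. With a purity of 50%, added after seeing the data, 787 were higher. Leaving out 1 mouse gave 66 to 177 higher and 119 to 307 lower, and after gate adjustment 155 to 365 higher and 28 to 304 lower. Gate sums of at least 20 cells gave 157 lower. The tuft share ranged from log2 -1.93 to -1.78 with 1 mouse left out, and its call was lost without NOD 1 (edgeR adjusted p = 0.148) or NOD 2 (0.124). Over its other alternatives the call held, with adjusted p from 0.000277 to 0.0216. DESeq2 gave 661 higher and 620 lower, and all 79 named genes called in the sums kept their direction and call with it.

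The sign turned for Glrx (log2 -1.31), Ehf (0.41), Pigr (3.04) and Itpr3 (0.30) in immature-gated cells only, for Ehf (0.28) and Ltc4s (0.27) without tuft-gated cells and for Insm1 (-0.077) without cells over 40000 UMIs; none of these values was called, and the cause was not tested. Of the 79 genes, 26 kept their call without tuft-gated cells, where 74 were tested, and 55 without cells over 40000 UMIs. With 2 mice per strain and 3 residual degrees of freedom, small differences were not detectable. Gates other than the immature one held at most 13 cells in a NOD mouse.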
